A study of Mus musculus with 6 samples.

Results

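The 10 genes described here encode secreted or cell-surface proteins that tune the extracellular matrix of the heart: the thrombospondins Thbs1 and Thbs4, periostin (Postn) and SPARC (Sparc), the 4 tissue inhibitors of metalloproteinases (Timp1, Timp2, Timp3 and Timp4), and the matrix metalloproteinases Mmp2 and Mmp14. They were taken by gene name from a table of 78409 genes, and each name matched 1 row. RNA was measured in the hearts of mice aged 11 months. In 3 hearts, called knockout, Ybx1 had been deleted in cardiomyocytes only (Ybx1 encodes a cold-shock domain protein that binds RNA and DNA), and 3 hearts came from control littermates. The labels name neither strain, sex, Cre driver nor the alleles carried by the controls. The other cells of the heart, fibroblasts among them, were not targeted.

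Matricellular proteins are secreted into the matrix but serve as signals and organisers more than as structural fibres. Metalloproteinases are zinc-dependent enzymes that cut matrix proteins, and TIMPs bind and block them. TIMP2 has a further part, since it joins the membrane-bound MMP14 to proMMP2 in the complex in which MMP2 is activated. In the heart these genes are known for their roles after injury and under pressure load, and fibroblasts are a main source of periostin, SPARC and MMP2.

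Libraries held 12270796 to 15141525 counts, and 13717 genes with a CPM (counts scaled to the library total) of at least 1 in at least 3 libraries were tested. Levels below are CPM normalised by TMM factors (trimmed mean of M-values, which scale libraries to each other), given for hearts 1, 2 and 3 of a group in that order. Ybx1 was at 851, 813 and 898 CPM in control hearts, against 203, 172 and 110 CPM in the knockout group, where the mean was 18.9% of control. Knockout heart 3 stood apart in its composition, with 10.7% of counts in mitochondrial rRNA where the other 5 hearts had 20.5% to 26.3%. Control heart 1 and knockout heart 3 expressed Xist, at 384 and 169 CPM, and the other 4 hearts had at most 2.55 CPM. Cardiomyocyte markers such as Myh6 and Tnnt2 were abundant in all 6 hearts (12 markers summing to 25781 to 36645 CPM).

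All 10 genes passed the filter on low values, and none of them passed a Benjamini-Hochberg adjusted p of 0.05 over all tested genes in edgeR's quasi-likelihood test (0% of the 13717 genes did). Their adjusted p-values lay between 0.694 and 0.865. The deleted gene Ybx1 did not pass either (log2 fold change -2.40, SE 0.27; edgeR adjusted p = 0.148). A gene can thus differ strongly between these groups and still miss the threshold. At an unadjusted p below 0.05 there were 2 of the 10, Thbs1 on the higher and Timp4 on the lower side, where 5.14% of all genes had such a p (2.69% on the higher side). DESeq2 also called 0 of the 10 (0.109% of all genes were called). The count at an unadjusted p below 0.05 was 0 without control heart 2 or without control heart 3. Without knockout heart 3 it was 3 (Thbs1, Postn and Mmp14, all on the higher side). Over all tested genes that count was 193 of 13531, 693 of 13474 and 510 of 13492 in the same fits, in that order. The main fit had 705 of 13717. For 8 of the 10 the log2 fold change lay above 0 (7 without control heart 1 or without control heart 2), as for 51.1% of all tested genes. The median was 0.22 over the 10 genes, 0.14 without knockout heart 1 or without knockout heart 3, and 0.01 over all tested genes. In none of the 10 did the 3 knockout hearts lie all above or all below the 3 control hearts, as they did in 12.1% of tested genes (6.28% all above and 5.84% all below). Exact two-sided permutation p-values of the 10 genes lay between 0.2 and 0.7, and 3 against 3 hearts allow none below 0.1.

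Promoter sequences of 3 TIMP genes are shown because Timp3 and Timp4 were the members with a fold change below 0, while Timp2 is the other abundant member of the family. Each is the 250 bases before the transcription start in RefSeq (build GRCm38.p6, written 5′ to 3′ on the gene's strand). Capitals mark a match, on either strand, to the GC box GGGCGG, the TATA box TATAAA, the AP-1 motif TGANTCA or the TEAD motif GGAATG.
Timp2 promoter: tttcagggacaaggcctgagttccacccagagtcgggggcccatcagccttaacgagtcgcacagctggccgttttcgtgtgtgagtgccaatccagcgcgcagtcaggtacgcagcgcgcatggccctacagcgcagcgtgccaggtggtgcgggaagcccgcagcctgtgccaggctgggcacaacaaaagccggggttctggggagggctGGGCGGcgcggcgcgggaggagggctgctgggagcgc
Timp3 promoter: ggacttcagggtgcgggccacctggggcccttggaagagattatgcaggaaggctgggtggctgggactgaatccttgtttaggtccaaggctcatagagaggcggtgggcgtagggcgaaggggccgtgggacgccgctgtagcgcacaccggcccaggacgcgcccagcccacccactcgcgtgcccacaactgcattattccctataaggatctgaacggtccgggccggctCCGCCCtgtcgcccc
Timp4 promoter: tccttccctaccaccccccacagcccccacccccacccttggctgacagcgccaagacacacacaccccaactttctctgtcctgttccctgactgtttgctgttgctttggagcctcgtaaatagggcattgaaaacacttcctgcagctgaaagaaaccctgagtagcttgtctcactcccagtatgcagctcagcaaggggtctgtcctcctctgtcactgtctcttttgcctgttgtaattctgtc

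The Timp2 window lies at chr11:118355412-118355661 on the minus strand, the Timp3 window at chr10:86300162-86300411 on the plus strand and the Timp4 window at chr6:115252206-115252455 on the minus strand. The Timp2 and Timp3 windows were rich in CpG, with 21 and 18 CpG dinucleotides and a GC content of 68.0% and 65.6%. The Timp4 window had 2 CpG and a GC content of 53.6%, against a median of 6 CpG and 52.4% GC over the same window of 32851 promoters. Timp2 and Timp3 each held 1 GC box, found in 32.7% of these windows, and Timp4 held none of the 4 motifs. Of the 10 genes 8 matched the promoter table, in 9 windows. The downstream one of the Postn windows held a TATA box whose first base lay 26 bases before the start, a motif found in 12.4% of all windows. Thbs4 held 3 GC boxes and 2 TEAD motifs (12.6% of all windows hold the latter), and the AP-1 motif (6.75% of all windows) occurred in none of the 9. These matches are letters in a window and were not tested against the expression values. Thbs1 and Mmp2 are named only.

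Per kilobase of exon, the 10 genes differed widely in level in control hearts. Lengths were the summed exons of each gene in GENCODE M21, 888 bases for Timp1 to 8702 bases for Postn. Timp3 was the highest at 39.5 ± 9.40 CPM per kb (SD, n = 3), followed by Sparc at 35.4 ± 4.35, and these neighbours did not differ beyond their spread. Timp2 followed at 16.5 ± 3.22 CPM per kb and Timp4 at 7.02 ± 2.20, and each of the steps from Sparc to Timp2, from Timp2 to Timp4 and from Timp4 to Postn exceeded the spread between control hearts. Postn at 2.90 ± 0.250 CPM per kb and Mmp2 at 2.71 ± 0.290 overlapped. Below a narrow gap came Timp1 at 2.14 ± 0.253, Thbs1 at 1.84 ± 0.331, Thbs4 at 1.61 ± 0.543 and Mmp14 at 1.33 ± 0.197 CPM per kb, each overlapping its neighbour. The abundant members were thus the inhibitors Timp3, Timp2 and Timp4 and the collagen-binding protein SPARC, and the enzymes and thrombospondins were scarce. Where along a transcript the reads fell was not recorded in the deposited table, so levels per kb compare genes only roughly.

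**Figure D1:**
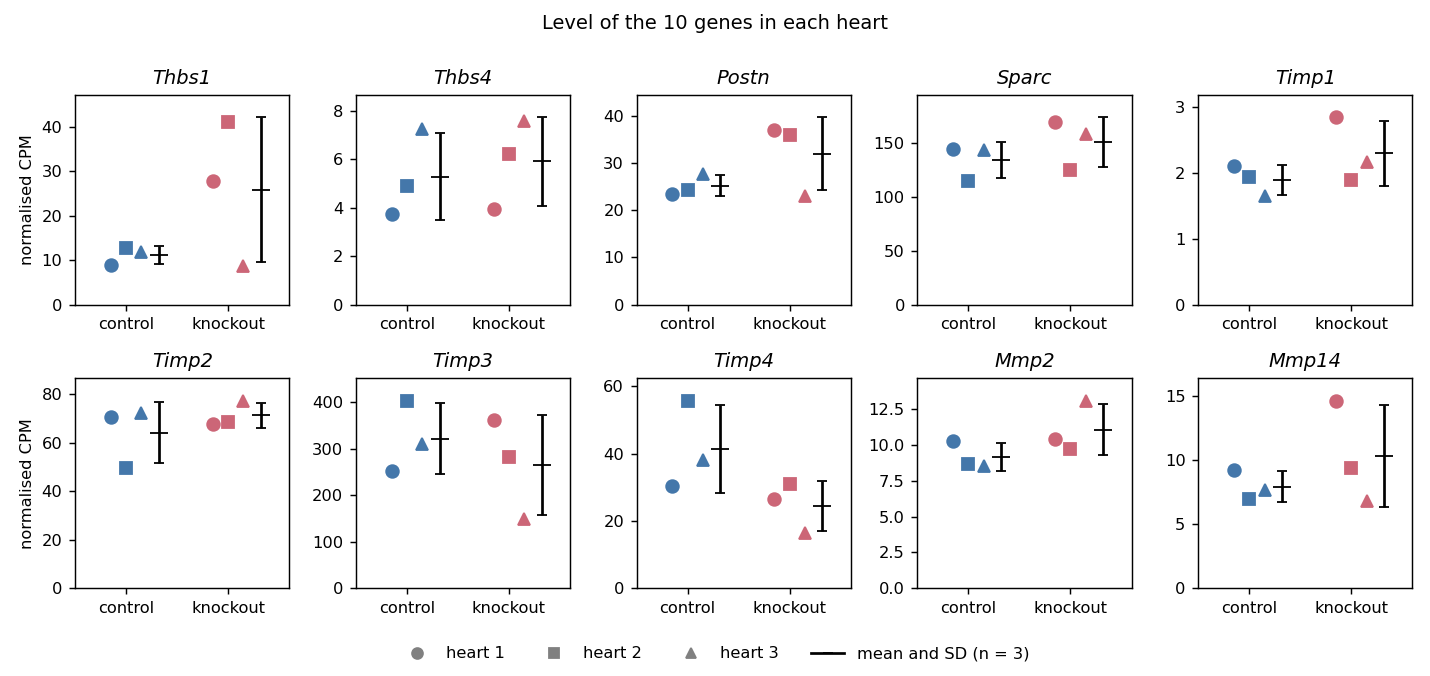
Normalised CPM (vertical axes, linear from 0) of the 10 genes in 3 control (blue) and 3 knockout (red) hearts, with heart 1 as circle, heart 2 as square and heart 3 as triangle; the black bar is the mean and SD (n = 3). In every panel the groups overlap, and Thbs1 in knockout hearts runs from 8.62 to 41.0 CPM.

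Among the matricellular genes Thbs1 differed most, and its knockout values were split. Thrombospondin 1 binds CD36 and CD47 and can activate latent TGF-beta. It was at 8.90, 12.7 and 11.8 CPM in control hearts, against 27.9, 41.0 and 8.62 CPM in the knockout group. Knockout hearts 1 and 2 exceeded all control hearts, and knockout heart 3 was the lowest of all 6. The log2 fold change was 1.21 (95% interval 0.13 to 2.29, SE 0.48; edgeR unadjusted p = 0.0325, adjusted p = 0.694). Without knockout heart 3 it was 1.63 (interval 1.13 to 2.13, edgeR adjusted p = 0.0786), and without knockout heart 2 it was 0.69. Without the filter on low values edgeR called Thbs1 higher (adjusted p = 0.00143 over 33251 genes), against adjusted p-values of 0.0786 to 0.9999 in the other 17 alternatives. The spread of Thbs1 between hearts was a CV of 18.0% in control and 63.1% in knockout.

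Postn showed a similar split of the knockout hearts at a smaller scale. Periostin is a matricellular protein of activated fibroblasts that helps collagen fibres to mature. It was at 23.5, 24.4 and 27.7 CPM in control hearts, against 37.0, 35.9 and 23.1 CPM in the knockout group. Again knockout hearts 1 and 2 lay above every control heart and knockout heart 3 below them. The log2 fold change was 0.34 (interval -0.16 to 0.85), 0.22 without knockout heart 1, and 0.53 without knockout heart 3 (interval 0.15 to 0.92, edgeR adjusted p = 0.9998).

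Thbs4 and Sparc showed small differences inside the spread between hearts. Thrombospondin 4, an endoplasmic reticulum and matrix protein of stressed muscle, was at 3.72, 4.90 and 7.23 CPM in control hearts, against 3.94, 6.22 and 7.56 CPM in the knockout group. Each group ran over nearly the same range, and the log2 fold change of 0.16 (interval -0.58 to 0.89) was -0.07 without knockout heart 3, -0.05 without control heart 1 and 0.46 without control heart 3. SPARC binds collagen and shapes its assembly, and its gene was at 144, 115 and 143 CPM in control hearts, against 170, 126 and 159 CPM in the knockout group. Control heart 2 and knockout heart 2 were the low ones in their groups, the groups overlapped, and the log2 fold change was 0.17 (interval -0.29 to 0.63), 0.06 without control heart 2 and 0.28 without knockout heart 2.

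Among the inhibitors, Timp4 had the lowest levels in knockout relative to control. TIMP4 is the family member best known for its expression in heart. It was at 30.4, 55.7 and 38.0 CPM in control hearts, against 26.5, 30.9 and 16.4 CPM in the knockout group. The groups overlapped at a single point, knockout heart 2 lying just above control heart 1. The log2 fold change was -0.75 (SE 0.30, interval -1.43 to -0.07; edgeR unadjusted p = 0.0338, adjusted p = 0.694). It was -0.49 without control heart 2, -0.53 without knockout heart 3 and -0.96 without knockout heart 2, and it stayed below 0 in all 18 alternatives.

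Timp3, like Timp4, was lowest in knockout heart 3. TIMP3 differs from the other TIMPs in that it binds to the matrix itself, and it also blocks proteinases of the ADAM family. It was at 252, 404 and 310 CPM in control hearts, against 363, 283 and 150 CPM in the knockout group. Knockout heart 3 was far below the others, while knockout hearts 1 and 2 lay inside the control range. The log2 fold change of -0.28 (interval -1.03 to 0.47) was 0.01 without knockout heart 3 (interval -0.53 to 0.54) and -0.58 without knockout heart 1.

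Timp1 and Timp2 were close between groups. TIMP1 is the family member induced by inflammation and injury, and its gene was scarce, with 21 to 42 counts per library. It was at 2.103, 1.94 and 1.66 CPM in control hearts, against 2.85, 1.90 and 2.17 CPM in the knockout group. Knockout hearts 1 and 3 lay above the control range and knockout heart 2 inside it, and the log2 fold change was 0.28 (interval -0.37 to 0.94), or 0.10 without knockout heart 1. Timp2 was at 70.4, 49.7 and 72.3 CPM in control hearts, against 67.8, 68.6 and 77.3 CPM in the knockout group. Control heart 2 was the low one, and the log2 fold change of 0.15 (interval -0.31 to 0.61) was -0.02 without it, 0.09 without knockout heart 3 and 0.25 without control heart 3.

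The metalloproteinases had fold changes above 0 that did not pass the test. Mmp2, the gelatinase A that cuts denatured collagen and basement membrane, was at 10.3, 8.68 and 8.49 CPM in control hearts, against 10.4, 9.71 and 13.1 CPM in the knockout group. Knockout heart 2 lay inside the control range, and the log2 fold change was 0.28 (interval -0.17 to 0.72), or 0.14 without knockout heart 3. Mmp14, the membrane-type enzyme that activates proMMP2, was at 9.22, 6.93 and 7.63 CPM in control hearts, against 14.6, 9.41 and 6.84 CPM in the knockout group. Knockout heart 1 was highest and knockout heart 3 lowest of all 6, and the log2 fold change was 0.37 (interval -0.28 to 1.03). Leaving out knockout heart 1 gave 0.03 and leaving out knockout heart 3 gave 0.60 (interval 0.08 to 1.13, edgeR adjusted p = 0.9998).

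**Figure D2:**
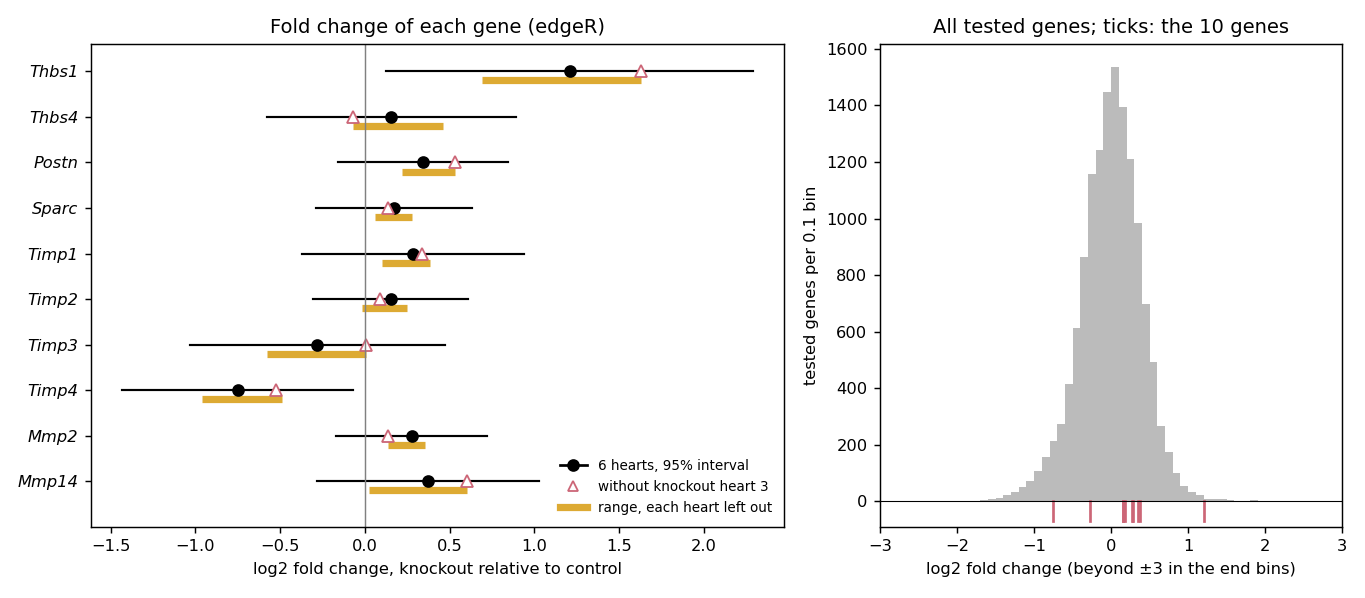
Left, log2 fold change of each gene (knockout relative to control, horizontal axis; point and line, edgeR estimate and 95% interval; triangle, without knockout heart 3; yellow bar, range over 6 fits that each left out 1 heart). Right, number of tested genes per bin of log2 fold change, with ticks for the 10 genes; Thbs1 at 1.21 and Timp4 at -0.75 lie outermost.

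The 3 knockout hearts differed from each other in these genes. The 4 matricellular genes summed to 180, 157 and 190 CPM in the control and 238, 209 and 198 CPM in the knockout group, with no overlap, and Sparc made up most of each sum. None of the 4 genes separated the groups alone, and how often such sums separate them was not computed. The 4 TIMP genes summed to 355, 511 and 422 CPM in the control and 460, 384 and 246 CPM in the knockout group, with overlap. Knockout heart 1 was the highest of all 6 in 4 genes (Postn, Sparc, Timp1 and Mmp14). Knockout heart 3 was the highest in 3 genes (Thbs4, Timp2 and Mmp2) and the lowest in 5 (Thbs1, Postn, Timp3, Timp4 and Mmp14). On the scale of log2(CPM + 0.5), the median difference from the control mean over the 10 genes was 0.27 in knockout heart 1, 0.10 in knockout heart 2 and 0.02 in knockout heart 3. Timp4 alone lay below the control mean in all 3 knockout hearts, and Timp1, Timp2 and Mmp2 lay above it in all 3, Timp1 by only 0.002 in knockout heart 2. The nuclear RNA Malat1 was also lowest in knockout heart 3, at 668 deposited CPM against 3317 to 7923 CPM in the other 5. It was highest in control heart 2, the heart with the highest Timp3 and Timp4 levels. The part of such differences between libraries in the Timp3 and Timp4 values was not tested.

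**Figure D3:**
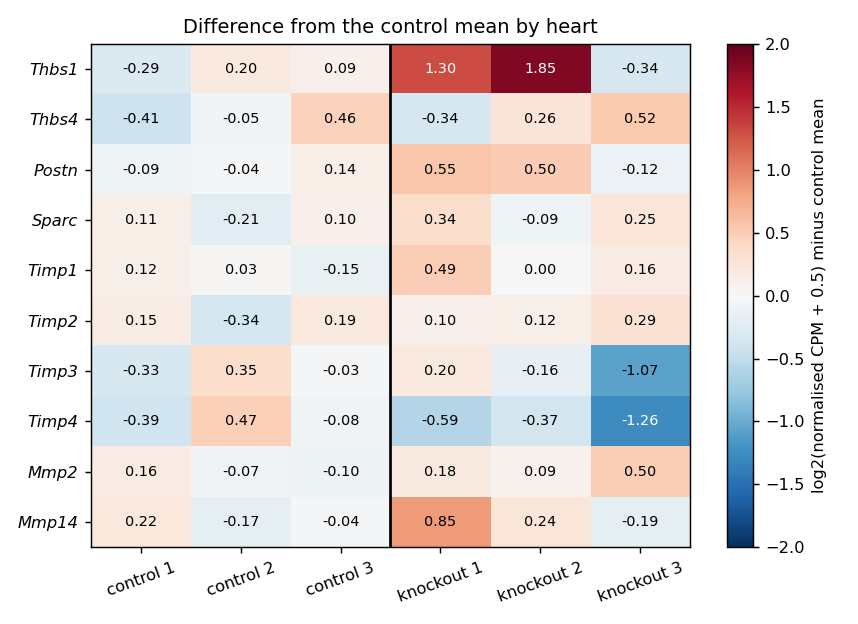
Difference of log2(normalised CPM + 0.5) from the control mean for each of the 10 genes (rows) in each heart (columns), red above and blue below, with the value in each cell. Thbs1 reaches 1.30 and 1.85 in knockout hearts 1 and 2 and -0.34 in knockout heart 3, where Timp3 and Timp4 are at -1.07 and -1.26.

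Ratios within a heart do not depend on scaling between libraries, and they are given without a test. The ratio of Mmp2 to Timp2 was 0.146, 0.175 and 0.117 in control and 0.153, 0.141 and 0.169 in knockout hearts. All 3 knockout values lay inside the control range. The ratio of Mmp14 to Timp2 was 0.131, 0.139 and 0.106 in control and 0.215, 0.137 and 0.0885 in knockout hearts, so knockout hearts 1 and 3 lay on either side of the control range. The ratio of Timp3 to Timp4 was 8.29, 7.25 and 8.16 in control and 13.7, 9.17 and 9.14 in knockout hearts, with no overlap between groups. Timp4 was thus lower relative to Timp3 in each knockout heart, including the heart in which both were low. This ratio was 1 of 8 formed between members, and the other 7 overlapped. How often ratios of other genes separate the groups was not computed.

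As shares of summed TIMP transcripts per kb, Timp3 made up 54.7%, 67.0% and 58.6% in control hearts and 63.9%, 58.2% and 42.4% in knockout hearts. Timp2 made up 31.95%, 17.3% and 28.6% in control and 25.0%, 29.5% and 45.6% in knockout hearts. Timp3 led in 5 hearts and Timp2 in knockout heart 3. The share of Timp4 was 9.13%, 12.8% and 9.93% in control and 6.46%, 8.77% and 6.40% in knockout hearts, lower in every knockout heart than in any control heart. It comes from the same counts as the ratio above, and in CPM the Timp4 groups overlapped. How often shares of other genes separate the groups was not computed. Timp1 made up 2.88% to 5.62% in all 6. Overlapping genes limit these values. In GENCODE M21 all of Timp1, Timp3 and Timp4 lie inside the genes Syn1, Syn3 and Syn2 on the other strand, and the exons of Timp3 and Syn3 share 1733 bases, those of Timp4 and Syn2 90 bases and those of Timp1 and Syn1 0. The counting was not stated to use strand, so reads in shared bases are uncertain. The synapsin genes, which serve synaptic vesicles, were low, with Syn3 at 0.265 to 1.001 CPM, Syn2 at 2.11 to 4.15 CPM and Syn1 at 0 to 0.199 CPM.

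**Figure D4:**
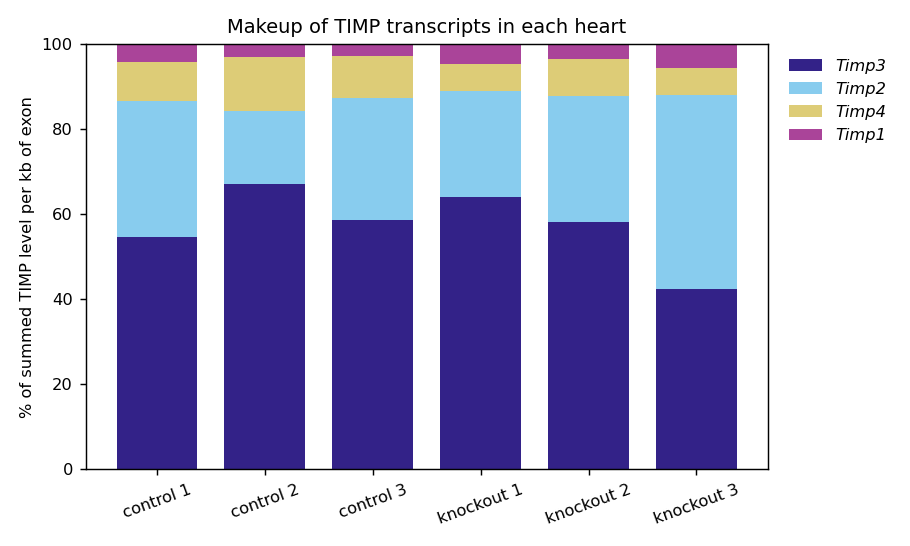
Share of each TIMP gene in the summed TIMP level per kb of exon (vertical axis, percent) in each of the 6 hearts. Timp3 holds 54.7% to 67.0% in control hearts and 42.4% in knockout heart 3, and Timp4 holds at least 9.13% in control and at most 8.77% in knockout hearts.

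Fibroblast markers varied between hearts beside these genes. In bulk tissue fewer cells of a type and less RNA per cell cannot be told apart. The 11 fibroblast markers summed to 1509 to 1879 CPM in control and 1819 to 2417 CPM in knockout hearts, and 10 of the 11 had a fold change above 0 (median 0.32). Without knockout heart 3 it was 7 of 11 (median 0.12), without control heart 2 it was 8 of 11 (0.20), and without knockout heart 1 the median was 0.21. Gsn, which encodes the actin-binding protein gelsolin, made up 47.9% to 61.8% of the sum and Dcn, which encodes decorin, 21.9% to 35.0%, so the sum follows mainly these 2 genes. Set against that sum, Mmp2 was at 5.77, 5.76 and 4.52 per 1000 in control and at 5.27, 5.34 and 5.41 per 1000 in knockout hearts. Sparc was at 77.9 ± 2.73 and 73.6 ± 10.9 per 1000 and Timp2 at 37.0 ± 3.55 and 34.7 ± 2.90 per 1000 (SD, n = 3 each). For these 3 genes the groups overlapped on this scale. Thbs1 remained split, at 4.999, 8.45 and 6.28 per 1000 in control and at 14.2, 22.6 and 3.57 per 1000 in knockout hearts. Timp4 was at 17.1, 36.9 and 20.2 per 1000 in control and at 13.4, 17.0 and 6.79 per 1000 in knockout hearts, with all knockout hearts below all control hearts, as for 12.3% of tested genes on this scale. Against the other 10 markers without Gsn, a setting chosen after seeing the data, Timp4 was at 38.15, 79.9 and 46.3 per 1000 in control and at 25.8, 37.3 and 17.8 per 1000 in knockout hearts. The groups were then separated by a small gap, and those of the other 9 members overlapped. The share of tested genes that separate on the scale without Gsn was not computed.

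Other marker lists gave these ranges. The 10 macrophage markers summed to 143 to 178 CPM in control and 180 to 225 CPM in knockout hearts (9 of 10 above 0, sums with no overlap), the 10 endothelial markers to 1133 to 1561 and 888 to 1884 CPM (7 of 10 above 0), and the 10 smooth muscle and pericyte markers to 999 to 1145 and 893 to 1153 CPM (2 of 10 above 0). The macrophage sums were separated by a small gap (178 against 180 CPM), and how often such sums separate was not computed. Their median log2 fold change was 0.39, and 0.25 without knockout heart 3. The endothelial count was 1 of 10 without knockout heart 1, 3 without control heart 3 and 4 without control heart 2. The smooth muscle and pericyte count was 5 of 10 without knockout heart 3 and 6 with no scaling factor. With no scaling factor the median of all tested genes was also higher, at 0.17 against 0.01. The 12 cardiomyocyte markers summed to 30970 to 36645 CPM in control and 25781 to 34155 CPM in knockout hearts (5 of 12 above 0). Myh6, Myh7, Ryr2 and Ttn, with Pecam1 of the endothelial and Cnn1 of the smooth muscle list, were lower in every knockout heart than in any control heart, as were 5.84% of all tested genes. C1qa of the macrophage list was higher in every knockout heart, as were 6.28% of all tested genes. No gene of these lists passed edgeR's test over all genes, and every marker passed the filter on low values. The part of cell makeup in the values of the 10 genes was not tested.

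Among 20 relatives of the matricellular genes, 18 were tested, 14 lay above and 4 below 0, and 0 passed the test in either direction. Their median log2 fold change was 0.30. With no scaling factor 16 lay above 0, a setting in which the median of all tested genes was also higher (0.17). Ccn2, a connective tissue growth factor of the CCN family, had the smallest p, at 34.0, 49.3 and 53.6 CPM in control hearts, against 132, 127 and 79.1 CPM in the knockout group. Every knockout heart was above every control heart (log2 fold change 1.30, SE 0.27; edgeR adjusted p = 0.694, and 0.00895 in DESeq2). The same held for Fbln5 and for 6.28% of all tested genes. Fbln5, an elastic-fibre protein, was at 7.52, 5.64 and 8.42 CPM in control hearts, against 10.8, 8.65 and 15.4 CPM in the knockout group (0.69, and 0.43 without knockout heart 3). Ccn1, the sister gene of Ccn2, was at 22.4, 39.7 and 45.2 CPM in control hearts, against 115, 60.5 and 38.6 CPM in the knockout group (0.99, and 0.46 without knockout heart 1). Without the filter on low values edgeR called Ccn2 (adjusted p = 0.00037) and Ccn1 (adjusted p = 0.0257) higher, among 133 calls over 33251 genes. As in Thbs1, knockout heart 3 had the lowest of the 3 knockout values in Ccn1 and Ccn2. Thbs2, the closest relative of Thbs1, was at 11.1, 7.39 and 10.1 CPM in control hearts, against 11.6, 7.36 and 18.5 CPM in the knockout group. Its high mean came from knockout heart 3, and the log2 fold change of 0.39 was -0.01 without that heart. Tnc, which encodes tenascin C, was at 1.13, 1.11 and 1.13 CPM in control hearts, against 1.02, 0.683 and 0.834 CPM in the knockout group (-0.40). Every knockout heart was there below every control heart, as in 5.84% of all tested genes. Tnc lay near the filter of 1 CPM, so its values rest on few counts. It was not tested in every fit that left out a heart.

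Among 17 receptors and partners, all tested, 13 lay above and 4 below 0, and 0 passed in either direction. Their median was 0.25, or 0.16 without knockout heart 3. With no scaling factor 16 lay above 0, and the median of all tested genes was then 0.17. Cd44, the hyaluronan receptor, was at 19.4, 15.2 and 17.0 CPM in control hearts, against 24.4, 25.0 and 24.6 CPM in the knockout group (log2 fold change 0.52, SE 0.17; edgeR adjusted p = 0.694). Sdc4, a heparan sulfate proteoglycan of cell-matrix contacts, was at 24.2, 15.4 and 25.5 CPM in control hearts, against 37.5, 29.6 and 34.5 CPM in the knockout group (0.64). Itgb5, an integrin subunit that can bind periostin, was at 73.4, 74.0 and 77.6 CPM in control hearts, against 95.3, 107 and 87.1 CPM in the knockout group (0.36). In these 3 genes and in Tgfb2 all knockout hearts lay above all control hearts, which was the case in 6.28% of all tested genes. Cd36, a thrombospondin receptor, was at a mean of 491 CPM in control hearts, against 638 CPM in the knockout group (0.38, and 0.15 without knockout heart 3).

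Among 28 other metalloproteinases and regulators, 18 were tested, 13 lay above and 5 below 0, and 0 passed in either direction. Their median was 0.20, or 0.37 without knockout heart 2 and 0.12 at a filter of 5 CPM. With no scaling factor 16 lay above 0, and the median of all tested genes was then 0.17. Adam19, a membrane-bound proteinase of the developing heart, was at 16.3, 13.4 and 12.9 CPM in control hearts, against 19.6, 18.2 and 20.4 CPM in the knockout group (log2 fold change 0.45). Adamts2, which trims procollagen, was at 5.66, 5.17 and 6.49 CPM in control hearts, against 9.21, 6.75 and 8.51 CPM in the knockout group (0.50). In both genes and in Mmp23 (0.43) all knockout hearts lay above all control hearts, which was the case in 6.28% of all tested genes. Mmp3, stromelysin 1, was at 4.29, 5.45 and 6.83 CPM in control hearts, against 12.9, 8.65 and 5.95 CPM in the knockout group (0.72, and 0.39 without knockout heart 1), with knockout heart 3 inside the control range. The collagenases Mmp8 and Mmp13 and the elastase Mmp12 were near the detection limit, each at a mean below 1 CPM in both groups. Mmp9, near the filter of 1 CPM, was at 1.21, 0.739 and 0.398 CPM in control hearts, against 2.38, 0.834 and 1.89 CPM in the knockout group. Its log2 fold change was 1.14 (edgeR adjusted p = 0.694), with knockout heart 2 inside the control range.

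The genes whose level over the 6 hearts was most like a member were taken from 11587 protein-coding genes by Pearson correlation of log2(CPM + 0.5), as a description without a test. For Thbs1 they were Ms4a6d (r = 0.986), Foxj2 (0.985) and Ankrd1 (0.982), and 15 genes exceeded 0.95. Ankrd1, a stress-responsive ankyrin repeat gene of cardiomyocytes, was at 852, 1047 and 1080 CPM in control hearts, against 1705, 2254 and 1009 CPM in the knockout group. For Timp4 they were Dmxl1 (r = 0.995), Scn3a (0.994) and Tafazzin (0.993), and 184 genes exceeded 0.95. For Mmp14 they were Cnot2 (r = 0.987), Pgm3 (0.987) and Vps13d (0.985), and 19 genes exceeded 0.95. With 6 hearts, 1 of which stood apart, such values are high for many genes.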

How the data were processed

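The deposited table gives estimated counts and CPM per gene for 6 heart libraries. Per the labels' protocols, RNA was extracted with TRIzol and cDNA was primed with oligo(dT), then tagmented and amplified. Per the submitters' processing notes, the build was mm39 and the named tools were edgeR 4.0.16, featureCounts, SAMtools 1.22.1, STAR 2.7.11 and Subread 2.1.1, with no roles. Strand setting, annotation and multi-mapping: not given in the sources used here. Estimated counts deposited by the authors held fractions in 21.3% to 22.7% of detected genes and were rounded for tests. The authors' deposited CPM is the count scaled to the column total.

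Fits used edgeR 4.0.16 (TMM, quasi-likelihood test, Benjamini-Hochberg over 13717 genes), limma 3.58.1 and DESeq2 1.42.0 in R 4.3.3, checked on simulated data. The exact permutation p of 3 against 3 hearts cannot fall below 0.1. P-values set the difference between the groups against the spread between these hearts. Alternatives changed the scaling, the filter, the pseudocount (0.5 or 2), the test, a block or Xist term, or left out a heart. Counts of every pair of libraries differed by more than sampling noise. The named genes are the 10 members, the 3 genes of smallest p in each related list, the synapsin hosts and the 3 genes most like 3 members; further genes were named after their values were seen. Members and lists were chosen with earlier results of these data known.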

Additional observations from a re-analysis of the deposited data

How the results depend on the processing

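Across 18 alternatives the count of the 10 genes called stayed at 0 in 17 and was 1 (Thbs1) in edgeR with no filter on low values. Over all genes the count of calls was 0 in the main fit, 133 with no filter, 15 in DESeq2, 5 with the heart number as a replicate block and 4 without the libraries with high Xist (chosen after seeing the data). It ranged from 0 to 1 when each heart was left out. The median of the 10 fold changes was 0.22, 0.14 at a filter of 5 CPM, 0.39 with no scaling factor and 0.34 in limma-trend with a pseudocount of 0.5. The last 2 settings also moved the median of all tested genes, to 0.17 and 0.14. The median of the 10 ranged from 0.14 to 0.26 when each heart was left out. Signs reversed for Thbs4 without control heart 1 (-0.05), without knockout heart 3 (-0.0719; up to 0.4592 without control heart 3) and without the libraries with high Xist (-0.27), for Timp2 without control heart 2 (-0.0163; up to 0.2459 without control heart 3) and for Timp3 without knockout heart 3 (0.0056; down to -0.5766 without knockout heart 1). The cause was not tested. Whether heart numbers pair the samples could not be told. Deviations of same-numbered hearts correlated at -0.11, 0.45 and 0.58, and those of differently numbered hearts at -0.70 to 0.57. With the block 1807 genes had an unadjusted edgeR p below 0.05, against 705 in the main fit. The block called none of the 10 genes, and Timp4 had an unadjusted edgeR p of 0.00545 in it. A threshold of 1 CPM of Xist marked 4 libraries, so a threshold of 100 CPM was added. Timp1 rests on 21 to 42 counts per library, and at a filter of 5 CPM it was not tested.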
